A study of Mus musculus with 6 samples.

Results

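The family of miR-200a, miR-200b, miR-200c, miR-141 and miR-429 comprises 5 microRNA (miRNA) hairpins in 2 genomic clusters, and each hairpin can give a mature miRNA from its 5p arm and from its 3p arm. Its 10 mature names were matched exactly against the 1978 mature miRNAs listed in each count table, and all 10 were found. In each library 9 of the 10 had at least 1 count and 8 had at least 10. The tables describe RNA bound to AGO2, the Argonaute protein that carries miRNAs, in mouse embryonic stem cells with the genotype Spy3-Ago2. The Spy3 tag allows AGO2 to be captured through SpyCatcher3 on a resin, and its RNA was taken from a gel slice between 70 and 150 kDa. Cells were grown on gelatin in medium holding 12.5% fetal bovine serum and the cytokine LIF, which maintains the undifferentiated state. The genotype and culture are shared by all 6 libraries (2 miRNA, 2 target and 2 input), so there was no contrast of conditions, and no untagged control was analysed here. Whether the line is 1 clone, and whether the replicates were separate cultures, is not given in the labels, so the spread between replicates may be technical.

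The miRNA libraries held 12562727 counts in replicate 1 and 22908172 in replicate 2, a 1.82-fold difference in depth. The 12 listed miRNAs of the miR-290 to miR-295 cluster, which marks mouse embryonic stem cells, all had at least 10 counts in both libraries and made up 39.1% and 38.5% of them. Levels below are in CPM, a miRNA's counts per 1000000 miRNA counts of its library, with the mean ± SD over the 2 libraries, and 95% Wilson intervals cover counting error only. A test over 2 libraries by sign flips cannot give a p below 0.5, so differences are read against the SD.

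miRNAs of this family are known from epithelial cells, where they repress Zeb1 and Zeb2, which encode repressors of the adhesion gene Cdh1 (E-cadherin). The ZEB proteins in turn repress both miRNA clusters, so that the 2 sides form a double-negative loop that accompanies the change between epithelial and mesenchymal states. Embryonic stem cells share epithelial features such as E-cadherin, and the family is also known for the gain of such features during reprogramming. A miRNA finds its targets mainly through its seed, bases 2 to 8, and AGO2 usually keeps the guide arm of a hairpin and discards the passenger.

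The 3p sequences are shown because the seed divides the family differently from the genome. All 10 members matched a RefSeq entry of GRCm38.p6, and the seed stands in capitals.
mmu-miR-200b-3p: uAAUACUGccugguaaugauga
mmu-miR-429-3p: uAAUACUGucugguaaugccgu
mmu-miR-200c-3p: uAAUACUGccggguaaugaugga
mmu-miR-200a-3p: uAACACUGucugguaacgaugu
mmu-miR-141-3p: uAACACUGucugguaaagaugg
The first 3 share the seed AAUACUG, and the last pair share AACACUG. Positions are counted from 1 at the 5′ end. From miR-200a-3p to miR-200b-3p the changes are C4U, which lies in the seed, and U9C, C17U and U22A outside it. miR-200a-3p and miR-141-3p share their first 16 bases and are told apart by C17A and U22G. miR-200b-3p and miR-200c-3p are told apart by U11G and A22G over their first 22 bases. The sources used here do not give how reads matching several miRNAs were assigned.

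The hairpins mir-200b, mir-200a and mir-429 lie on the minus strand of chromosome 4 at chr4:156053905-156055750 (GRCm38.p6, the assembly also called mm10), in that order in the direction of transcription, with gaps of 695 and 908 nt. All 3 fall within the span of the long noncoding RNA gene Gm13648. The hairpins mir-200c and mir-141 lie on the minus strand of chromosome 6 at chr6:124717914-124718390, separated by 336 nt. No other annotated gene contains them, and the nearest protein-coding gene is Phb2, 969 nt from mir-141. Each cluster therefore carries both seeds, and each seed comes from both chromosomes.

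The 3p arms held nearly all of the family's counts. miR-200b-3p had 28456 counts in replicate 1 and 56525 in replicate 2, or 2265 and 2467 CPM (2366 ± 143, n = 2 here and below). It was the most abundant member in both libraries. miR-141-3p followed with 20724 and 38637 counts, or 1650 and 1687 CPM (1668 ± 26.1). miR-200c-3p had 11902 and 23740 counts, or 947 and 1036 CPM (992 ± 62.9). The latter 2 come from the same chromosome 6 locus, and the difference between them exceeded both SDs. miR-429-3p had 10075 and 20054 counts, or 802 and 875 CPM (839 ± 51.9). miR-200a-3p, the least abundant 3p arm, had 6045 and 11765 counts, or 481 and 514 CPM (497 ± 22.9). The order of the 5 was the same in both libraries, and each of the 4 neighbouring pairs differed by more than the SD of either member. The closest pair was miR-200c-3p and miR-429-3p, with ratios of 1.181 and 1.184. Among the 1978 listed miRNAs the 5 held places 60 to 137 in replicate 1 and 59 to 133 in replicate 2. Ligation and PCR can favour some sequences over others. Their part in the differences between members was not tested.

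**Figure D1:**
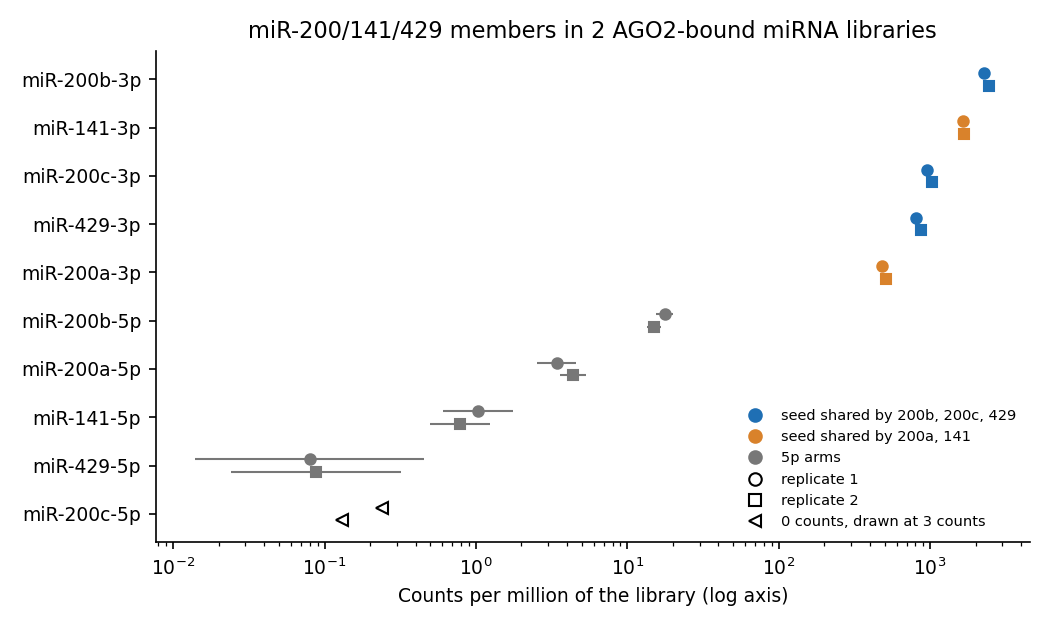
CPM (log axis) of the 10 members in replicate 1 (circles) and replicate 2 (squares), with 95% Wilson intervals, coloured by seed. The 5 3p arms lie between 481 and 2467 CPM and the 5p arms at or below 17.7 CPM, and miR-200c-5p, with 0 counts, is drawn at the 3-count limit.

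Together the family held 0.617% of the counts in replicate 1 (0.612 to 0.621) and 0.660% in replicate 2 (0.657 to 0.663). By genomic origin, the chromosome 4 cluster had more counts than the chromosome 6 cluster in both libraries. With all arms summed, the chromosome 4 members had 44842 and 88788 counts, and the chromosome 6 members had 32639 and 62395. Their ratio was 1.37 in replicate 1 and 1.42 in replicate 2 (1.40 ± 0.035). The chromosome 4 sum is over 3 hairpins and the chromosome 6 sum over 2. Per hairpin the order turned, at 0.916 and 0.949 (0.932 ± 0.023). Members of a cluster did not share a level. Within the chromosome 4 cluster miR-200b-3p took 63.8% and 64.0% of the 3p counts, miR-429-3p 22.6% and 22.7%, and miR-200a-3p 13.6% and 13.3%. The Wilson intervals of the 2 libraries overlapped for each of these shares. Within the chromosome 6 cluster miR-141-3p took 63.5% (63.0 to 64.0) and 61.9% (61.6 to 62.3), intervals that did not overlap.

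By seed, the AAUACUG members outnumbered the AACACUG members. miR-200b-3p, miR-200c-3p and miR-429-3p together had 50433 and 100319 counts, which was 65.3% (65.0 to 65.7) and 66.6% (66.3 to 66.8) of the 3p counts. miR-200a-3p and miR-141-3p together had 26769 and 50402 counts. The ratio of the seeds was 1.88 and 1.99 (1.94 ± 0.075), and per member, 3 against 2, it was 1.26 and 1.33. The seeds stood in opposite orders in the 2 clusters. On chromosome 4 the AAUACUG members exceeded miR-200a-3p 6.37-fold and 6.51-fold in sum, and 3.19-fold and 3.25-fold per member. On chromosome 6 the AACACUG member miR-141-3p exceeded miR-200c-3p 1.74-fold and 1.63-fold. The AAUACUG seed thus came mostly from chromosome 4, 3.24 and 3.23 times as much as from chromosome 6, and the AACACUG seed mostly from chromosome 6, 3.43 and 3.28 times as much as from chromosome 4. Each of these ratios lay on the same side of 1 in both libraries and differed from 1 by more than its SD. The split of AACACUG by chromosome depends on telling miR-200a-3p from miR-141-3p, which share their first 16 bases. How reads matching both were assigned is not given.

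**Figure D2:**
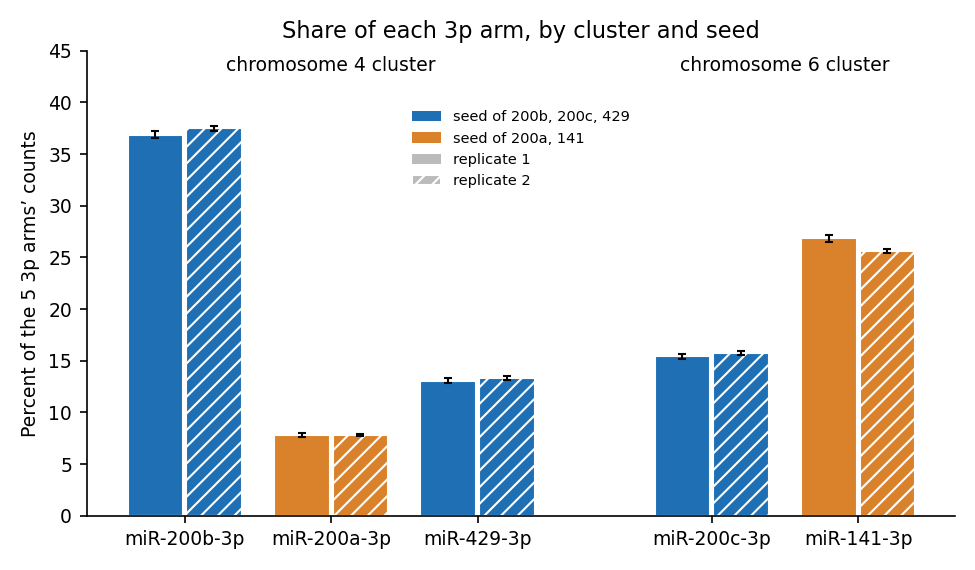
Percent of the counts of the 5 3p arms taken by each arm in replicate 1 (plain bars) and replicate 2 (hatched bars), grouped by cluster and coloured by seed, with 95% Wilson intervals. AAUACUG leads in the chromosome 4 cluster through miR-200b-3p at 36.9% and 37.5%, and AACACUG leads in the chromosome 6 cluster through miR-141-3p at 26.8% and 25.6%.

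No other miRNA with a RefSeq sequence carried the seed of any member. Of the 1978 miRNAs listed, 1679 had such a sequence, and the other 299 held 7.44% and 8.06% of the counts. Of 1398 distinct seeds, 892 had a count in either library. Among the 1398, AAUACUG stood at place 29 in replicate 1 and 26 in replicate 2, with 0.401% and 0.438% of all counts. AACACUG stood at places 41 and 42, with 0.213% and 0.220%. On the mean share, AAUACUG at 0.420% lay next to the seed of miR-295-5p at 0.424% and that of miR-543-3p at 0.407%, and differed from both by less than its own SD of 0.026 percentage points. AACACUG at 0.217% lay next to the seed of miR-34a-5p at 0.219%, again within its SD of 0.0049 points. The seed of miR-494-3p, at 0.190%, was lower by more than either SD.

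The 5p arms were rare in AGO2 beside the 3p arms. Their sequences are shown, with seeds in capitals, because the 2 most abundant of them share a seed.
mmu-miR-200b-5p: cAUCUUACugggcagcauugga
mmu-miR-200a-5p: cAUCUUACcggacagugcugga
mmu-miR-141-5p: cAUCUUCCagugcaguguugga
mmu-miR-200c-5p: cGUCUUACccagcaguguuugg
mmu-miR-429-5p: gUCUUACCagacaugguuaga
miR-200b-5p had 222 counts in replicate 1 and 342 in replicate 2, or 17.7 and 14.9 CPM (16.3 ± 1.94). It held places 368 and 386, where 1064 and 1114 miRNAs had a count. miR-200a-5p, with the same seed AUCUUAC, had 43 and 100 counts, or 3.42 and 4.37 CPM (3.89 ± 0.67). miR-141-5p, reached from miR-200b-5p by A7C within the seed and by U9A, G11U, C16U and A17G outside it, had 13 and 18 counts. miR-429-5p had 1 and 2 counts. miR-200c-5p had 0 counts in both libraries, which allows up to 0.239 and 0.131 CPM at the 3-count limit. All 5 together made up 0.360% (0.320 to 0.405) and 0.306% (0.279 to 0.335) of the family, and the 3p arms had 277 and 326 times as many counts. At this depth the order of the 2 least abundant 5p arms is not settled.

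The share of the passenger arm differed between hairpins. mir-200b had 0.774% (0.679 to 0.882) and 0.601% (0.541 to 0.668) of its counts on the 5p arm, and mir-200a 0.706% (0.525 to 0.950) and 0.843% (0.693 to 1.02). The order of this pair turned between the libraries. mir-141 had 0.0627% (0.0366 to 0.107) and 0.0466% (0.0295 to 0.0736), below the intervals of mir-200a and mir-200b in each library. mir-429 had 0.00992% and 0.00997%, from 1 and 2 counts, with intervals reaching 0.0562% and 0.0364%. For mir-200c, with 0 counts, intervals reached 0.0323% and 0.0162%, and the 3-count limit allows up to 0.0252% and 0.0126%. The hairpins with the highest and lowest 5p shares are shown with both arms in capitals.
mir-200b: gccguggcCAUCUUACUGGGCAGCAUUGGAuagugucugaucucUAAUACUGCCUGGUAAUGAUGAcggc
mir-200a: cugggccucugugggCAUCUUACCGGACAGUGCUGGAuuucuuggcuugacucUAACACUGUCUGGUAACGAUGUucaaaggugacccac
mir-200c: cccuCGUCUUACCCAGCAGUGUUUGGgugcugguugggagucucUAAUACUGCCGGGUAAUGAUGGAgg
The arms are 14 bases apart in mir-200b, 16 in mir-200a and mir-429, 18 in mir-200c and 20 in mir-141. All 5 3p arms begin with U, while 4 of the 5p arms begin with C and miR-429-5p begins with G. Of 195 hairpins past a minimum of 100 counts per library and with RefSeq sequences for both arms, 48.7% had U as the first base of the more abundant arm and 20.0% as that of the less abundant arm.

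All 5 hairpins had at least 99% of their counts on the 3p arm in both libraries. This held for 60 of 260 hairpins (23.1%) whose arms were paired by name and which passed that minimum. By 3p share mir-200c tied for first place with 13 other hairpins at 0 counts on the 5p arm. mir-429 stood at place 20, mir-141 at 30, mir-200b at 57 and mir-200a at 59. More 3p than 5p counts in both libraries were found for 132 of the 260 (50.8%), so the direction of the bias is common and its size is less so.

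**Figure D3:**
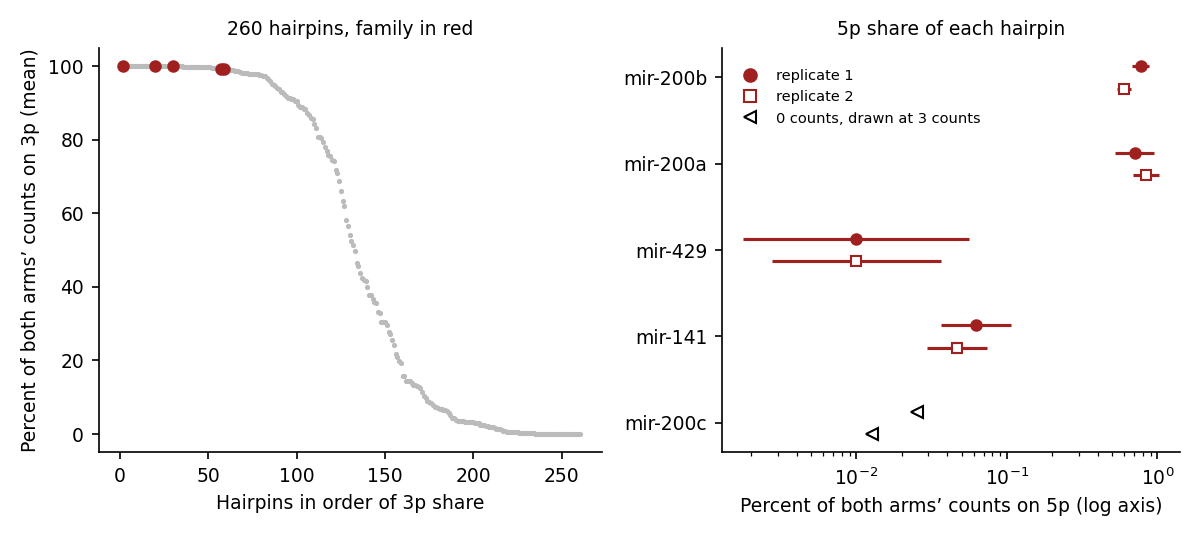
Left, percent of counts on the 3p arm (mean of 2 libraries) for 260 hairpins in order, with the family in red at places 1 to 59. Right, percent of counts on the 5p arm of each family hairpin (log axis, 95% Wilson intervals): mir-200b and mir-200a lie between 0.601% and 0.843%, and the others at or below 0.0627%.

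The replicates differed little for the 3p arms. As a share of its library, miR-200b-3p was 1.09-fold higher in replicate 2, miR-200c-3p 1.09-fold, miR-429-3p 1.09-fold, miR-200a-3p 1.07-fold and miR-141-3p 1.02-fold. On the log2 scale the 3 AAUACUG members lay between 0.12 and 0.13, although they come from both chromosomes, and the AACACUG members at 0.09 and 0.03. The 3 AAUACUG members kept their proportions. miR-200b-3p made up 56.4% and 56.3% of that seed, miR-200c-3p 23.6% and 23.7%, and miR-429-3p 20.0% and 20.0%, with overlapping Wilson intervals. Fisher's exact test (two-sided, Benjamini-Hochberg over the 1212 miRNAs with a count) called 5 of the 9 members tested, where 27.1% of all 1212 were called. The 5 were the 3p arms, all higher in replicate 2, a call made for 12.8% of the 1212. Adjusted p by Fisher's exact test ranged from 3.45e-31 for miR-200b-3p to 0.0377 for miR-141-3p. The call of miR-141-3p was lost at an adjusted p of 0.01 and when all listed miRNAs were tested, which left 4 members called. Of the 427 miRNAs that reached 100 counts in both libraries, 63.5% were called in either direction and 29.5% as higher in replicate 2. This test compares 2 libraries, not conditions, and treats counts as independent. Across those 427 the log2 ratio had a median of -0.04 and an SD of 0.30, so that each 3p arm lay well within the spread of all miRNAs. miR-200b-5p, at -0.24, and miR-200a-5p, at 0.35, were not called (adjusted p = 0.151 and 0.380, Fisher's exact test).

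**Figure D4:**
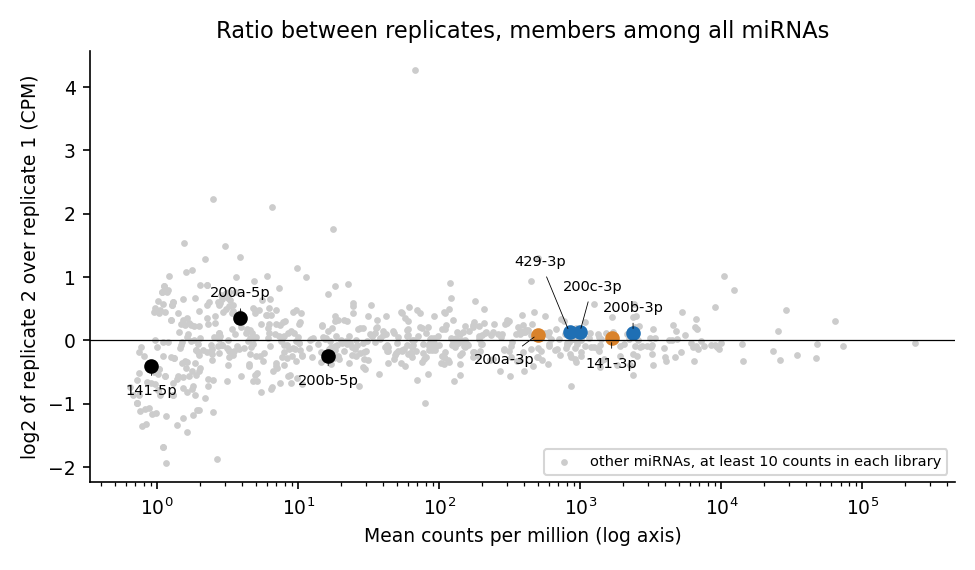
log2 of replicate 2 over replicate 1 against the mean CPM (log axis) for miRNAs reaching 10 counts in both libraries, with 8 members labelled. The 5 3p arms lie between 0.03 and 0.13, and the less abundant 5p arms spread from -0.40 to 0.35.

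Other miRNAs of like level were read off as the places next to the leading members, a likeness of mean level over 2 libraries and nothing more. miR-200b-3p stood between miR-33-5p and miR-130b-3p above, at 2420 and 2369 CPM, and miR-409-3p and miR-101a-3p below, at 2354 and 2350 CPM. Each of the 4 had a larger SD than miR-200b-3p, from 245 to 666 CPM, and none differed from it beyond that spread. miR-141-3p stood between miR-32-5p and miR-29b-3p above, at 1713 and 1684 CPM, and miR-145a-5p and miR-423-3p below, at 1523 and 1475 CPM. Of these 4, miR-145a-5p differed from miR-141-3p by more than either SD (93.6 and 26.1 CPM). miR-200b-5p at 16.3 CPM was flanked by miR-363-5p, miR-28a-3p, miR-665-5p and miR-499-5p, at 15.7 to 16.5 CPM.

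Other miRNAs known from epithelia were mostly rarer. miR-205-5p, typical of stratified epithelium, was the exception, with 29995 and 64219 counts, or 2388 and 2803 CPM (2595 ± 294). It was 1.05-fold and 1.14-fold above miR-200b-3p, a ratio of 1.095 ± 0.058 that differed from 1 by more than its SD. The difference of the mean CPM was smaller than the SD of miR-205-5p. miR-192-5p and miR-194-5p, known from gut, liver and kidney, had 199 ± 5.10 and 125 ± 0.90 CPM. miR-203-3p, known from skin, had 54.2 ± 4.0 CPM, and miR-375-3p, known from endocrine cells, had 2.41 ± 0.20. miR-184-3p had 2.87 ± 0.11 CPM and miR-192-3p 1.78 ± 0.41. miR-205-3p, miR-203-5p, miR-375-5p and miR-215-5p had at most 13 counts in either library, and miR-215-3p had 0 in both. The 12 listed names summed to 0.278% and 0.318% of the libraries, of which 7 had at least 10 counts in each. Of the 12, miR-205-5p alone exceeded miR-200b-3p, and whether other cells contributed to either level was not tested.

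The 15 miRNAs listed here as mesenchymal summed to 0.398% and 0.397%, less than the family in each library. Whether each of them is particular to mesenchymal cells was not tested, so the sum is that of a list and not a measure of such cells. miR-145a-5p, known from smooth muscle, led with 1523 ± 93.6 CPM, followed by miR-31-5p with 1185 ± 58.7 and miR-21a-5p with 828 ± 9.42. No listed mesenchymal miRNA exceeded miR-200b-3p. Counts of 10 or more in both libraries were recorded for 11 of the 15. miR-199a-3p and miR-199b-3p, identical in RefSeq sequence and made at separate loci, were listed at 0 in both, while miR-199a-5p had 632 and 1201 counts. The sum set against the family therefore holds nothing from these 2 names, and whether their reads were counted was not tested.

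The target peaks bear on whether AGO2 was found on RNAs that the family is known to repress. Of 40 genes listed as reported targets, 9 (22.5%) had at least 1 of the 3292 peaks by midpoint within the gene span, against 1817 of 21900 protein-coding genes (8.30%). RNA levels were not analysed here, and a gene must be transcribed to carry a peak, so the difference in these shares is not read as a property of the list. Zeb1, the transcription factor gene best known as a target, had 1 peak of 58 nt, 82824 nt before the downstream end of its span. Zeb2 had none. Of the 9 genes, 7 had a peak within 2000 nt of the downstream end, where 46.0% of all genes with a peak had one. The 9 held 47 peaks, 23 of them in Fn1. A gene with more peaks has more chances of a peak near its end, and the genes compared were not matched for peak number. These shares are therefore not read as a preference for the end. Exons and untranslated regions were not used here, the peak list has no value per replicate, and a peak is not assigned to any miRNA.

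Among the other listed targets were genes for chromatin, adhesion and pluripotency. Suz12, which encodes a core subunit of Polycomb repressive complex 2, had 3 peaks, with 2 of them 167 and 1915 nt from the end. Ctnnb1, which encodes the adhesion and signalling protein beta-catenin, had 7 peaks, the last of them 51 nt from the end at chr9:120960408-120960505. Klf4, a pluripotency transcription factor gene, had 2, at chr4:55527362-55527409 and chr4:55528086-55528145, lying 248 and 978 nt from the end. Sox2, another gene of that class, had 1 at chr3:34652335-34652459, 64 nt from the end. Dlc1, a gene for a GTPase-activating protein, had 3, of which 1 lay within 2000 nt. Ctbp2, which encodes a corepressor, had 4, the closest 3034 nt from the end. Fn1, the fibronectin gene, had 23 peaks, of which 1 lay within 2000 nt.

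Among 22 listed epithelial genes, 3 had a peak (13.6%). Cdh1, the E-cadherin gene repressed by ZEB proteins, had 5 peaks, which lay 321 to 16633 nt before the end of its span, the last at chr8:106669899-106669953. Epcam, an epithelial adhesion gene, had 1 at chr17:87642101-87642142, 9006 nt from the end. Among 19 listed mesenchymal genes 2 had a peak (10.5%), and these were Zeb1 and Fn1, already counted among the targets. Both shares stand against the 8.30% of all protein-coding genes and rest on 3 and 2 genes.

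**Figure D5:**
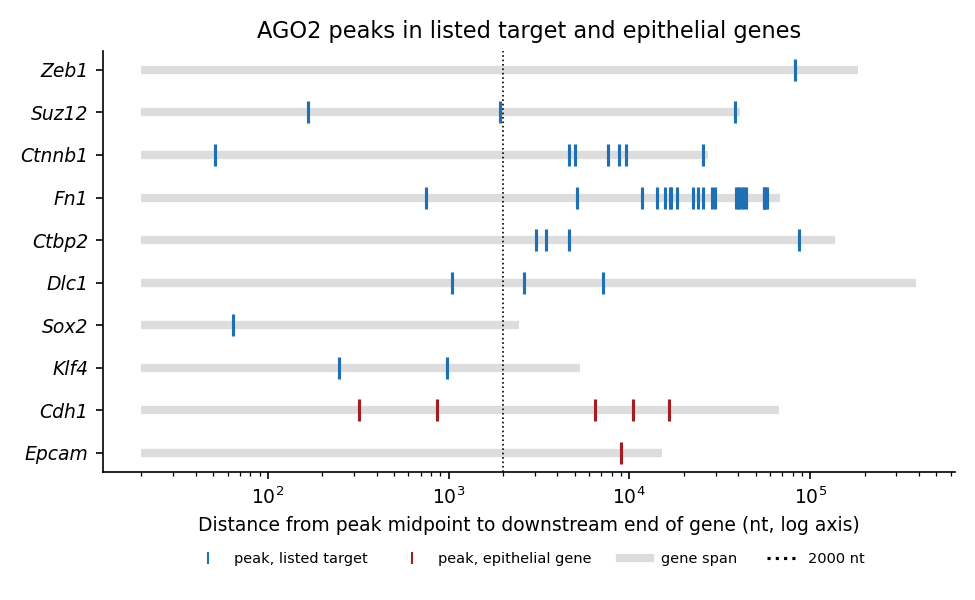
Distance from each peak midpoint to the downstream end of the gene (nt, log axis) for 10 listed genes with a peak, grey bars being gene spans and the dotted line 2000 nt. Suz12, Ctnnb1, Fn1, Dlc1, Sox2, Klf4 and Cdh1 have a peak left of the line, and the single peak of Zeb1 lies 82824 nt from the end.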

How the data were processed

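For the miRNA libraries the authors deposited unnormalized counts of each mature miRNA, and for the series 1 peak list whose score was 0 for every peak, so its positions alone were used. Per the submitters' processing notes the build was mm10. Tools listed there, with no role, include deepTools 3.1.3, Bowtie2 2.4.2, cutadapt 2.10 and UMI-tools, besides STAR 2.5.2a and DESeq2 1.36.0. The sources used here do not say whether counts were collapsed by molecular identifier. Duplicates left in would narrow the intervals. A row that names no miRNA held 0 counts and was left out.

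From the counts, shares and CPM were computed with 95% Wilson intervals, and replicates were compared with Fisher's exact test (adjusted p under 0.05). The test was run on simulated counts that held counting error only. Its behaviour with a further spread between libraries was not tested. The spread between libraries as 1 group, from edgeR 4.0.16, was a biological coefficient of variation of 18.0% over the 677 miRNAs reaching 10 counts in both. Scaling by TMM and by DESeq2 1.42.0 size factors were alternatives. Peaks were assigned by midpoint to RefSeq gene spans, with no match on strand because the gene table used here holds none, and distances run along the peak's strand. Sequences come from RefSeq, GRCm38.p6. Python 3.11.15, scipy 1.17.1 and R 4.3.3 were used.

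The members and lists were chosen with earlier results of these data known. Named are all members, miRNAs next in level to the leading member of each seed and of the 5p arms, all listed epithelial miRNAs, mesenchymal ones of at least 0.05%, and listed genes with a peak, with Zeb2. Some listed genes are counted but not reported here by name. The seeds next in level, miR-199a and miR-199b were added after their values were seen.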

Additional observations from a re-analysis of the deposited data

How the results depend on the processing

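Of 53 alternatives, 49 left a value within its spread, kept its direction, or changed a count by 2 or fewer. The spread was the SD between replicates or, for 3p shares with 0.5 added to each arm, the counting error where larger. That addition moved the 3p share of mir-429 from 99.990% to 99.986% and that of mir-200c from 100% to 99.997%. Both moves exceeded the SD and stayed within the counting error. Some of the 49 could not come out otherwise. With 2 libraries the value of either replicate always lies within the SD of their mean. No other miRNA with a RefSeq sequence carried a member's seed, so counting every miRNA with the seed left the seed ratio as it was. Among the 49, the count of members called between replicates fell from 5 to 4, through miR-141-3p. This was seen at an adjusted p of 0.01 and with no filter on low counts. With miR-290a-5p left out of the library total, the family share was 0.838% in place of 0.638%. Taken per hairpin, the ratio of the clusters was 0.932 and the order of the clusters turned. Without miR-200a-3p and miR-141-3p, an alternative chosen after seeing the data, that ratio was 3.25. Taken per member, the ratio of the seeds was 1.29. The per-hairpin and per-member values divide the same sums by the number of hairpins or members, 3 against 2. TMM and DESeq2 size factors shifted every log2 ratio between replicates by 0.0060 and 0.013 and turned none. Leaving out either replicate gave family shares of 0.617% to 0.660%, cluster ratios of 1.37 to 1.42 and seed ratios of 1.88 to 1.99. No paired analysis was possible because a single group has values per library. With 2 libraries the SD is imprecise. The 5p shares of mir-141 and mir-429, at 18 counts or fewer, carry the widest intervals relative to their value. That of mir-200c, with 0 counts, has an upper limit only.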

Other observations

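No deposited target peak overlapped a hairpin of the family. The nearest peak lay 12846 nt from mir-141 and 109612 nt from mir-200b.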
